A study of Caenorhabditis elegans with 2 samples.

Results

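Binding of UNC-55 was examined at the basic helix-loop-helix (bHLH) transcription factor genes of Caenorhabditis elegans. Members were taken by name from the Ensembl protein-coding genes of the WBcel235 genome (ce11). They were the genes whose name starts with hlh- (hlh-1 left out) or mxl- before a number, together with lin-32, ngn-1, cnd-1, lin-22, mml-1, mdl-1, aha-1, ahr-1, hif-1, cky-1 and sbp-1. The rule used names only and found 38 of 19973 nuclear protein-coding genes. A name does not show that a protein has the domain, and hlh-1, ref-1 and hnd-1 are bHLH genes that this rule leaves out.

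The measurements were ChIP-seq peak lists of UNC-55 in the strain NC1639, made from late embryos of mixed sex taken whole. The strain carries wdIs49 (pttr39::UNC-55a::GFP; dpy-20+) on chromosome III, so both libraries share the transgene, which the ttr-39 promoter drives. This promoter is used to drive expression in D-class motor neurons, and the cells behind a peak of whole embryos were not identified. Whether the peaks come from cells that normally make UNC-55, such as the VD motor neurons, is therefore unknown. The antibody is labelled unc-55, and the tag is GFP in the genotype but GFP-FLAG in a note. The 2 biological replicates form 1 group, no condition was compared, and the control library was not analysed here.

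UNC-55 is the worm COUP-TF, a nuclear receptor needed for the identity and wiring of the VD motor neurons in the ventral cord. bHLH proteins bind DNA as dimers at E-boxes, the motif CANNTG. Those with a leucine zipper, such as the Max, Mad and Mondo proteins, mostly bind the E-box CACGTG. PAS-domain members such as HIF-1 and the aryl hydrocarbon receptor respond to oxygen or ligands and pair with AHA-1, the worm ARNT. The proneural class, with relatives of Atonal, neurogenin and achaete-scute, starts neuronal fates with the E protein HLH-2 as partner, and Hes-related and REF-1 family proteins are mostly repressors.

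Peaks were taken from the authors' set kept by the irreproducible discovery rate (IDR), which ranks regions by how well lists repeat. Which lists the authors set against each other is not stated, so a peak of the set need not have been called in both replicates. It held 2511 peaks, each with a signal value of the authors' peak caller from 23.8 to 321 (median 34.4) and a summit. The signal is the authors' own and is not scaled between lists. Replicate 1's own list held 3577 regions of signal 2.00 to 19.1, and replicate 2's list 30000 of signal 3.51 to 306. Replicate 1's list overlapped 770 of the IDR peaks (30.7%) by at least 1 bp. No reads were analysed here, so the depth of the libraries is unknown, and intervals below cover counting error over genes or peaks only.

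A promoter window covered the 1000 bp before a transcript start and the 200 bp after it. In such a window, 5 of the 38 members held an IDR summit: mdl-1, hlh-30, hlh-11, hif-1 and aha-1. That share was 13.2% (95% Wilson interval 5.75 to 27.3%), beside 7.34% of all nuclear protein-coding genes, which lies within the interval. A summit lay in the body of hlh-30 and of ahr-1, 2 of 38 members (5.26%, 1.46 to 17.3%) beside 3.23% of all genes. From 5 kb before to 5 kb after the gene, 14 of 38 members had a summit (36.8%, 23.4 to 52.7%), beside 24.1% of all genes. When a summit counted only for the gene with the nearest transcript start, 7 of 38 members kept one within 5 kb (18.4%, 9.22 to 33.4%), beside 9.79% of all genes. All 4 background shares lay within the members' intervals, so by these counts of genes the family was not told apart from protein-coding genes in general. For repeated summits the background lay below the interval. In promoter windows, 2 of 38 members, hlh-30 and mdl-1, had 2 or more (5.26%, 1.46 to 17.3%), beside 0.290% of all genes. The promoter windows of hlh-30 cover 5547 bp, against 1201 bp for mdl-1, which has 1 start. Within 5 kb, 5 of 38 had 2 or more (13.2%, 5.75 to 27.3%), beside 5.64%, which is barely below. Among these 5 is hlh-27, whose 2 peaks overlap each other and share 1 region of replicate 2. Taken as 1 site, they would not place hlh-27 in this count. Another is hlh-11, where some of the summits have a neighbour's start nearest. The excess within 5 kb is thus not firm. Per length, the members' joined 5 kb spans held 4.93 summits per 100 kb, against 2.51 for all protein-coding genes, and their promoter windows 14.6 against 4.67. These densities have no interval here, since several summits lie at the same gene.

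The summits were not spread evenly over the roles. Of the 8 leucine zipper genes, 3 had a promoter summit (37.5%, 13.7 to 69.4%) and 5 a summit within 5 kb (62.5%, 30.6 to 86.3%). Of the 5 bHLH-PAS genes, 2 had a promoter summit and 3 a summit within 5 kb. These roles were joined after their values had been seen. Together they had a promoter summit at 5 of 13 genes (38.5%, 17.7 to 64.5%) and a summit within 5 kb at 8 of 13 (61.5%, 35.5 to 82.3%).

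Among the other 25 members, which include the proneural, Hes and REF-1, Twist-related and Olig-related genes, 0 had a promoter summit (upper limit 13.3%) and 0 had one in the gene body. The background of 7.34% lies below that limit, so a lack of promoter peaks was not detectable with 25 genes. A summit within 5 kb was found at 6 of the 25 (24.0%, 11.5 to 43.4%), close to the 24.1% of all genes. All 12 of the summits near members whose nearest transcript start was a member's belonged to leucine zipper or PAS genes, and each of the other 6 genes had a neighbour's start closer. The difference between the roles was not tested.

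**Figure D1:**
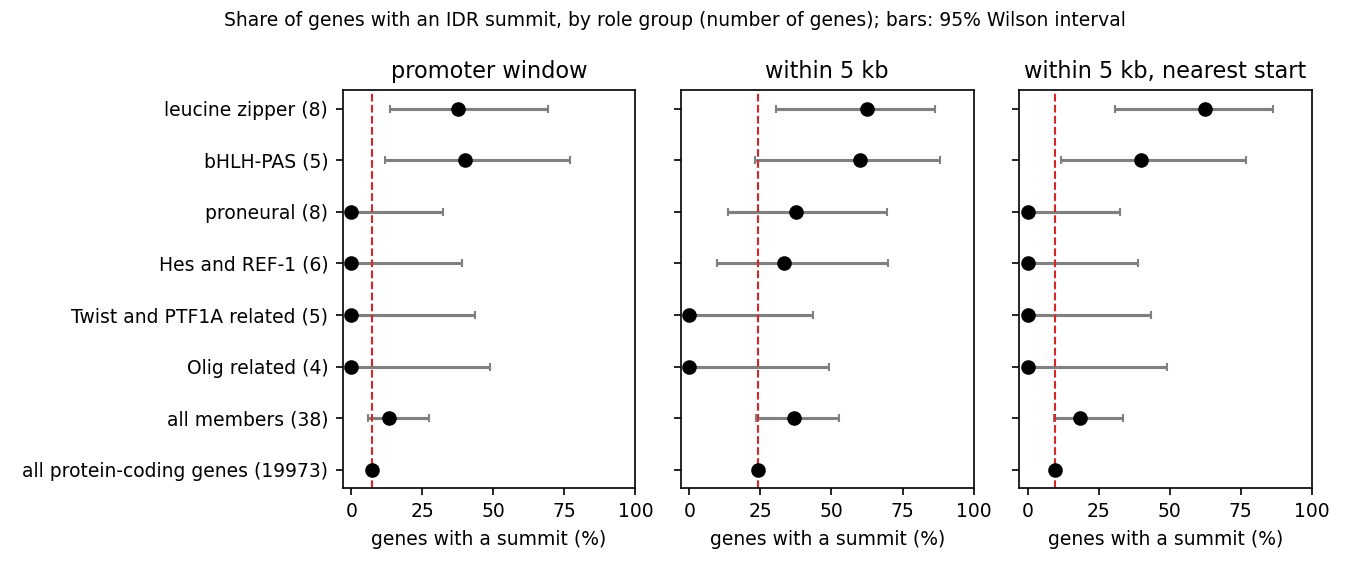
Share of genes with an IDR summit (x axis, %) in a promoter window, within 5 kb, and within 5 kb with the nearest start, for 6 role groups, all members and all protein-coding genes, the number of genes in brackets. Points are shares, bars are 95% Wilson intervals and the dashed red line is the share over all protein-coding genes. In the promoter panel, leucine zipper (37.5%) and bHLH-PAS genes (40.0%) lie to the right of the line at 7.34%, as do all members (13.2%). The other role groups shown lie at 0.

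The leucine zipper and PAS genes were also larger. Their median length was 4503 bp, against 1504 bp for the other 25 members and 2027 bp for all genes. Their median distance to the upstream neighbouring gene was 3119 bp (leucine zipper 4286 bp, PAS 661 bp), against 2036 bp and 936 bp. Per length of the joined 5 kb spans, they held 7.87 IDR summits per 100 kb, the other members 2.66 and all protein-coding genes 2.51. Per length of promoter windows, they held 32.3 summits per 100 kb. The density was thus higher per length too, but these 16 summits come from 8 genes, and 10 of them from mdl-1, hlh-30 and hlh-11.

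Of all members, mdl-1 had the most IDR summits. It encodes the worm Mad protein, which pairs with the Max protein MXL-1 at CACGTG. The gene (X, 1549 bp) had 4 summits within 5 kb, a number that 0.275% of all genes reached (55 of 19973). Of these, 2 lay in its promoter window, which 0.290% of all genes reached (58), and 2 or more within 5 kb were found at 5.64% (1126).

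The strongest of the 4 mdl-1 peaks lay 4568 bp upstream and had an IDR signal of 65.0 (rank 249), with 2.86 in replicate 1 (rank 1650 of 3577) and 58.1 in replicate 2 (rank 301 of 30000). Its nearest start is that of the neighbour R03E9.2, at 4482 bp. At 79 bp upstream of the mdl-1 start the IDR signal was 50.6 (rank 489), with 6.68 in replicate 1 (rank 133) and 43.4 in replicate 2 (rank 615). That promoter peak is the one bHLH promoter peak that replicate 1 also lists, among its strongest regions.

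The summit 666 bp upstream had an IDR signal of 44.2 (rank 692) and 46.9 in replicate 2 (rank 509). The last, 115 bp past the 3′ end of mdl-1, had 39.7 (rank 919) and 36.8 in replicate 2 (rank 963). Neither was overlapped by a region of replicate 1, so 2 of the 4 mdl-1 peaks rest on replicate 2 and the pooled list. Replicate 1 had 2 further regions near mdl-1, at 1953 bp upstream (signal 2.34) and 2681 bp downstream of the start (2.62), where the IDR set has none.

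All 4 mdl-1 summits had CACGTG within 100 bp, the E-box of the Mad and Max proteins themselves, and the motif centre lay 11.5 to 43.5 bp from the summit. The 4 windows of 201 bp are shown because this motif is what they share. Each is on the strand of mdl-1, 5′ to 3′, in build WBcel235, with CACGTG in capitals. They are, in the order of the gene, chrX:6737683-6737883, chrX:6741585-6741785, chrX:6742172-6742372 and chrX:6743914-6744114.
mdl-1, rank 249: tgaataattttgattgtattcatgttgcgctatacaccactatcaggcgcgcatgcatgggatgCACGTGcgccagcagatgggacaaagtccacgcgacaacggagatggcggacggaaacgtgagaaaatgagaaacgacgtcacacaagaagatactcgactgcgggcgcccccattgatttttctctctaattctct
mdl-1, rank 692: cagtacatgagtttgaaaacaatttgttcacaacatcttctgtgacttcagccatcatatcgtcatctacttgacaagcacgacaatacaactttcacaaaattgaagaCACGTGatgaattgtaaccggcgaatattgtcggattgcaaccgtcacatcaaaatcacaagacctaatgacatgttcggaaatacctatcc
mdl-1, rank 489: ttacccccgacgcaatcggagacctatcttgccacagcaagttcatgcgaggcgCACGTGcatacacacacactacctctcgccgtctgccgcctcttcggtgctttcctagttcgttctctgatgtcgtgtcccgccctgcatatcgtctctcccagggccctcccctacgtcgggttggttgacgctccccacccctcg
mdl-1, rank 919: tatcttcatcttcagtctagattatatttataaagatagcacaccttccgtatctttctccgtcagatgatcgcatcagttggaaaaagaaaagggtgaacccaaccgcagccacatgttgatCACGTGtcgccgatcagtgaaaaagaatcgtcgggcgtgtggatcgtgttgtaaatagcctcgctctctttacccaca

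Over all IDR summits, CACGTG was found within 100 bp of 5.73% (144 of 2511). Among the 55 genes with 4 or more summits within 5 kb, mdl-1 alone had CACGTG at every one. Among the 1126 genes with 2 or more there were 7: mdl-1, abts-4, ipla-3, kin-14, mstr-1, pqn-20 and ZK470.2. CACGTG is its own reverse complement, so a site counts once for both strands.

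The motif was also frequent across the mdl-1 locus away from the peaks. The 11.5 kb of mdl-1 with its flanks held 13 CACGTG sites, 4 of them in the summit windows and 9 elsewhere. That is 1.13 sites per kb, against 0.177 per kb over the nuclear genome (17729 sites). The corresponding spans held 0.337 per kb at hif-1, 0.265 at hlh-30 and 0.178 at hlh-11, with 0 sites in their summit windows. Whether UNC-55 or another protein meets the DNA at these sites was not tested.

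Of the PAS genes, hif-1 had the strongest peak. It encodes the hypoxia-inducible factor, which is degraded in normal oxygen through EGL-9 and VHL-1. The gene (V, 4854 bp, 4 transcript starts) had a peak 1948 bp upstream with an IDR signal of 73.3 (rank 154), 2.02 in replicate 1 (rank 3552) and 71.5 in replicate 2 (rank 138). The replicate 1 region is near the weakest of that list, although the IDR peak is among the strongest. A second summit, 218 bp upstream in the promoter window, had 42.5 (rank 768) and 42.3 in replicate 2 (rank 665), with no replicate 1 region. The window at the promoter summit held no GAGAGA, a motif found within 100 bp of 51.6% of all IDR summits. The upstream window, chrV:20778359-20778559 on the strand of hif-1, is shown for its GAGAGA repeats, which read TCTCTC on this strand and are in capitals.
hif-1, rank 154: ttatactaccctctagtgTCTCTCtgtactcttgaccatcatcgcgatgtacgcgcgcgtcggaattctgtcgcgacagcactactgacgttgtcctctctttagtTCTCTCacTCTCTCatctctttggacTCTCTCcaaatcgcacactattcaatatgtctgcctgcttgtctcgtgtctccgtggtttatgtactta

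The partner gene aha-1 (I, 3073 bp) had 1 summit, 180 bp upstream, with 35.7 in the IDR set (rank 1171) and 36.4 in replicate 2 (rank 988). It lies in the promoter windows of aha-1 and of the divergent neighbour C25A1.15, whose start is closer (144 bp), so the peak cannot be given to either gene. The aryl hydrocarbon receptor gene ahr-1 (I, 8583 bp) had 1 intronic summit, 576 bp past its internal transcript start. Its IDR signal was 45.4 (rank 641), with 2.55 in replicate 1 (rank 2071) and 42.9 in replicate 2 (rank 633), so both replicates list a region there. No IDR summit was within 5 kb of hlh-34 or cky-1.

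The TFEB relative hlh-30, a regulator of autophagy and lysosome genes, had 3 IDR summits in promoter windows. Only 0.0250% of all genes reached that number (5 of 19973). The gene has 10 transcript starts over 20159 bp (IV, minus strand), so its promoter windows cover 5547 bp, against 1201 bp for a gene with 1 start. All 3 summits are inside the gene, in introns of its longer transcripts. They lay 212, 258 and 983 bp upstream of the nearest internal start. Their IDR signals were 42.2 (rank 778), 24.2 (rank 2446) and 33.6 (rank 1340), beside 42.9, 23.2 and 34 in replicate 2.

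None of the 3 hlh-30 peaks was overlapped by replicate 1. Replicate 1 instead listed 2 other regions in the gene body, of signal 4.28 (rank 594) and 2.02 (rank 3558), and 1 upstream of the gene (2.16). The pooled list held the first 2 at 4.35 and 8.20, below the weakest IDR peak. Of the body regions of replicate 1, the weaker was overlapped by a region of replicate 2 (rank 8218) and the stronger by none. Replicate 2's longer list had 20 regions in the body of hlh-30.

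All 3 hlh-30 windows held GAGAGA or its reverse complement, in capitals below, beside 51.6% of the windows at all IDR summits. In transcription order they are chrIV:4028239-4028439, chrIV:4027221-4027421 and chrIV:4019927-4020127, on the minus strand.
hlh-30, rank 778: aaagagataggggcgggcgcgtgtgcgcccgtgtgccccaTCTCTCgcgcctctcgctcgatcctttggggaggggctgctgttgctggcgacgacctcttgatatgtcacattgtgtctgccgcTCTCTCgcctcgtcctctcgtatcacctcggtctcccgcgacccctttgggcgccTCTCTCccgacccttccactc
hlh-30, rank 2446: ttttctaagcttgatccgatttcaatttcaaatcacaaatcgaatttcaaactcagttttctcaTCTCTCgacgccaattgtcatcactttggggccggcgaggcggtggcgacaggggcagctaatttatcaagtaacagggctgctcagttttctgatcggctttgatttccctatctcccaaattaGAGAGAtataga
hlh-30, rank 1340: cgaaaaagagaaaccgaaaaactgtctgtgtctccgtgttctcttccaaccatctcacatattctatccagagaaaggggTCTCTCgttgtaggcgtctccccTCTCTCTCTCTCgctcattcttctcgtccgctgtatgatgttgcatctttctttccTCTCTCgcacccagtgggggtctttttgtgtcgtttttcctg

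The AP-4 relative hlh-11 (III, 6819 bp) had 3 summits within 5 kb, of which only the one in its promoter window, 332 bp upstream, had hlh-11 as the nearest start. It had 32 in the IDR set (rank 1481) and 29.7 in replicate 2 (rank 1517). The other 2 were weaker, at 24.6 and 25.5, and lay 74 bp upstream of the centromeric histone gene hcp-3 and 345 bp upstream of ubc-7. No hlh-11 peak was overlapped by replicate 1. The window near hcp-3 also held GAGAGA, and the window near ubc-7 did not. The promoter window, chrIII:9619279-9619479, carries GAGAGA in runs upstream of the summit, in capitals.
hlh-11, rank 1481: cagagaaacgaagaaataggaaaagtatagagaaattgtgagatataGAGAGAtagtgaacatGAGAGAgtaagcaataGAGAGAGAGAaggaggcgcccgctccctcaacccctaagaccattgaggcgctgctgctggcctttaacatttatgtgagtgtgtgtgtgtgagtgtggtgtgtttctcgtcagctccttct

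The Mondo gene mml-1 and the sterol regulatory element binding protein gene sbp-1 each had 1 upstream summit beyond the promoter window. At mml-1 it lay 1646 bp upstream with 25.6 in the IDR set (rank 2217) and 25 in replicate 2. At sbp-1 it lay 2625 bp upstream with 27 (rank 2015) and 22.6 in replicate 2. Both signals are in the weaker part of the IDR set, and replicate 1 had no region at either. The Max-like genes mxl-1, mxl-2 and mxl-3 had no IDR summit within 5 kb, although MXL-1 and MXL-2 are the partners of MDL-1 and MML-1.

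**Figure D2:**
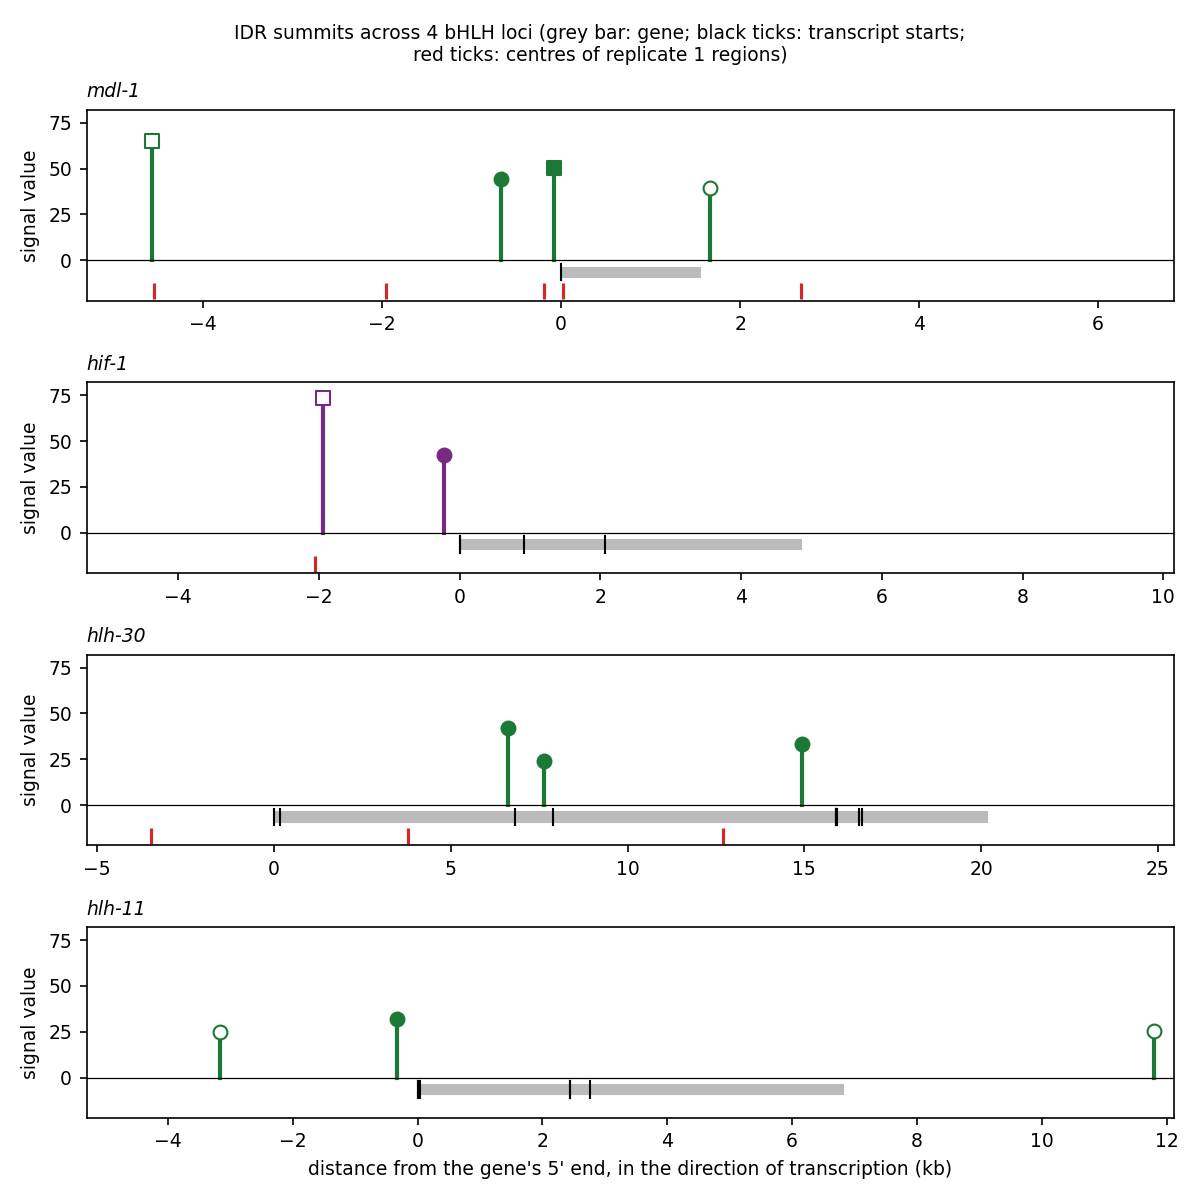
IDR summits at mdl-1, hif-1, hlh-30 and hlh-11: height is the authors' signal value and the x axis is the distance (kb) from the gene's 5′ end in the direction of transcription. Filled symbols lie in a promoter window, squares are overlapped by replicate 1, grey bars are genes, black ticks transcript starts and red ticks the centres of replicate 1 regions. The 4 mdl-1 summits flank the gene on both sides, the 3 hlh-30 summits lie inside it, and squares occur at mdl-1 (65.0 and 50.6) and hif-1 (73.3) only.

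Among the Hes-related genes, lin-22, a repressor of neuronal fate in the epidermis, had the strongest IDR peak of the whole family, at 78.0 (rank 115). It also had 9.70 in replicate 1 (rank 35), the highest replicate 1 rank at any member, and 67.4 in replicate 2 (rank 178). The peak is narrow (121 bp) and lies 4851 bp upstream, in the 5297 bp gap before lin-22 and outside protein-coding genes. The nearest start is that of vrp-1, 2279 bp away, so the peak cannot be given to lin-22 by position. The window, chrIV:3014787-3014987 on the strand of lin-22, is shown as the strongest site near any member, and its only motif of those searched is ACGCAG (capitals, read as CTGCGT).
lin-22, rank 115: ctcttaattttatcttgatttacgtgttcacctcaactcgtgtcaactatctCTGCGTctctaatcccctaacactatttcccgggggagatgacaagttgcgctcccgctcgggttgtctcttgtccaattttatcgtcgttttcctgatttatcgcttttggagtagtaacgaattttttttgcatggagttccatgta

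The Atonal gene lin-32 (X), needed for the male sensory rays and other sensory neurons, had 1 summit 4045 bp upstream and 157 bp before the start of its neighbour T14F9.2. Its IDR signal was 26.6 (rank 2070) and replicate 2's was 24.2 (rank 2231), but replicate 1 put it at 9.36 (rank 37). Both replicates rank the lin-22 peak above the lin-32 peak, in lists of 3577 and 30000 regions.

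Of the achaete-scute relatives, hlh-6, a gland gene of the pharynx, had a summit of signal 52.7 (rank 441) at 4658 bp upstream, in an intron of dnj-20 and 316 bp upstream of a dnj-20 start. For hlh-4, which acts in the ADL neurons, a summit of 36.6 (rank 1091) lay 3062 bp upstream in an intron of T05G5.1. The E protein gene hlh-2 had a summit of 44.2 (rank 693) 2417 bp past its 3′ end, which is 94 bp upstream of plag-15. The REF-1 family gene hlh-27 had 2 summits upstream, at 33.7 and 24.4, which share 1 region of replicate 2 and are nearer to the insulin gene ins-13. In each case the start of a neighbour was closer, and none of these 5 peaks was overlapped by replicate 1.

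**Figure D3:**
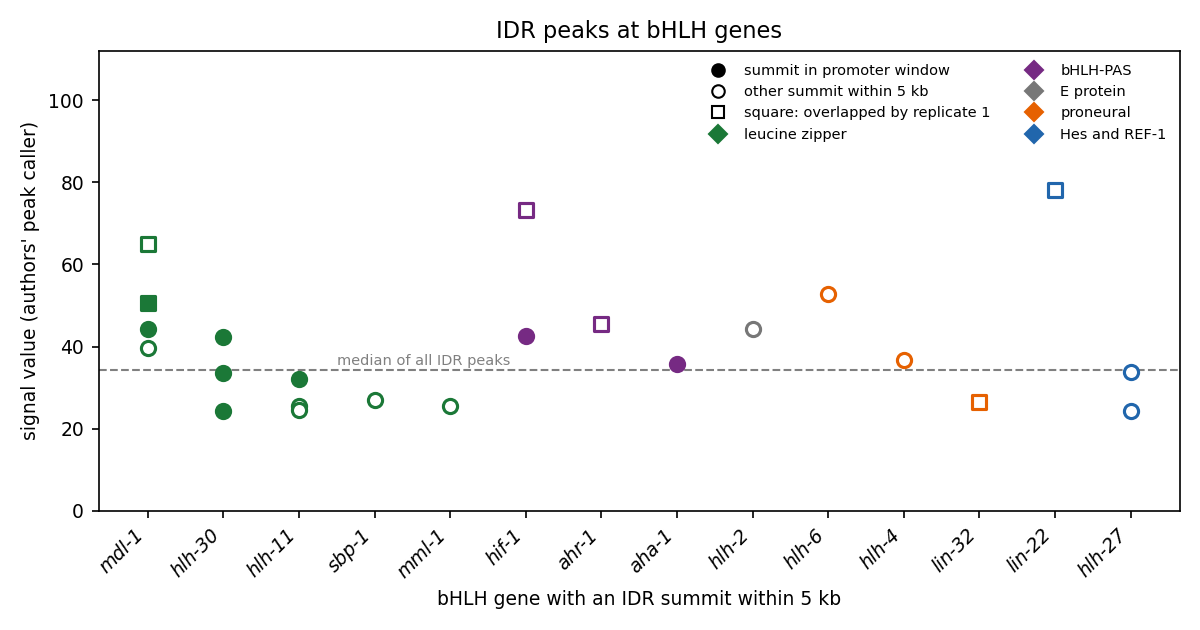
Authors' signal value of each IDR peak (y axis) at the 14 bHLH genes with a summit within 5 kb (x axis), coloured by role. Filled symbols lie in a promoter window, squares are overlapped by replicate 1 and the dashed line is the median of all IDR peaks (34.4). Every filled symbol belongs to a leucine zipper or PAS gene, and the highest point is the distal lin-22 peak at 78.0.

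The other 24 members had no IDR summit within 5 kb. They include the neurogenin gene ngn-1, the NeuroD gene cnd-1, the Twist gene hlh-8, the glial Olig-related gene hlh-17 with hlh-31, hlh-32 and hlh-16, and hlh-33. The longer pooled list, which the authors label as peaks and background, had a region within 5 kb of all 38 members, beside 86.8% of all genes, and in the promoter window of 24 (63.2%, 47.3 to 76.6%), beside 43.7%. Replicate 2's list had a promoter region at 23 members (60.5%, 44.7 to 74.4%), beside 43.6% of all genes. In both lists the share of all genes lies below the members' interval, but such long lists include weak regions. The pooled promoter regions were at 11 of the 13 leucine zipper and PAS genes (84.6%, 57.8 to 95.7%) and at 13 of the other 25 (52.0%, 33.5 to 70.0%).

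The strongest pooled region within 5 kb of a gene had a median signal of 13.9 over the members and 13.3 over all genes with a region. It was 27 for the leucine zipper and PAS genes and 11.4 for the other 25. For each member with an IDR summit, this region is its strongest IDR peak, so the medians partly repeat the IDR counts. These roles were joined after those counts had been seen. Just under the weakest IDR peak (23.8) came mxl-3 with 20.4, followed by ngn-1 with 17.4, hlh-13 with 16.9, cnd-1 with 15.3 and hlh-14 with 15.2. At the other end, hlh-25 and hlh-26, which are divergent neighbours, shared a region of 4.02. The weakest best signal of a member with an IDR summit was that of mml-1 (25.6), so members just above and just below the IDR threshold differ little in signal.

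**Figure D4:**
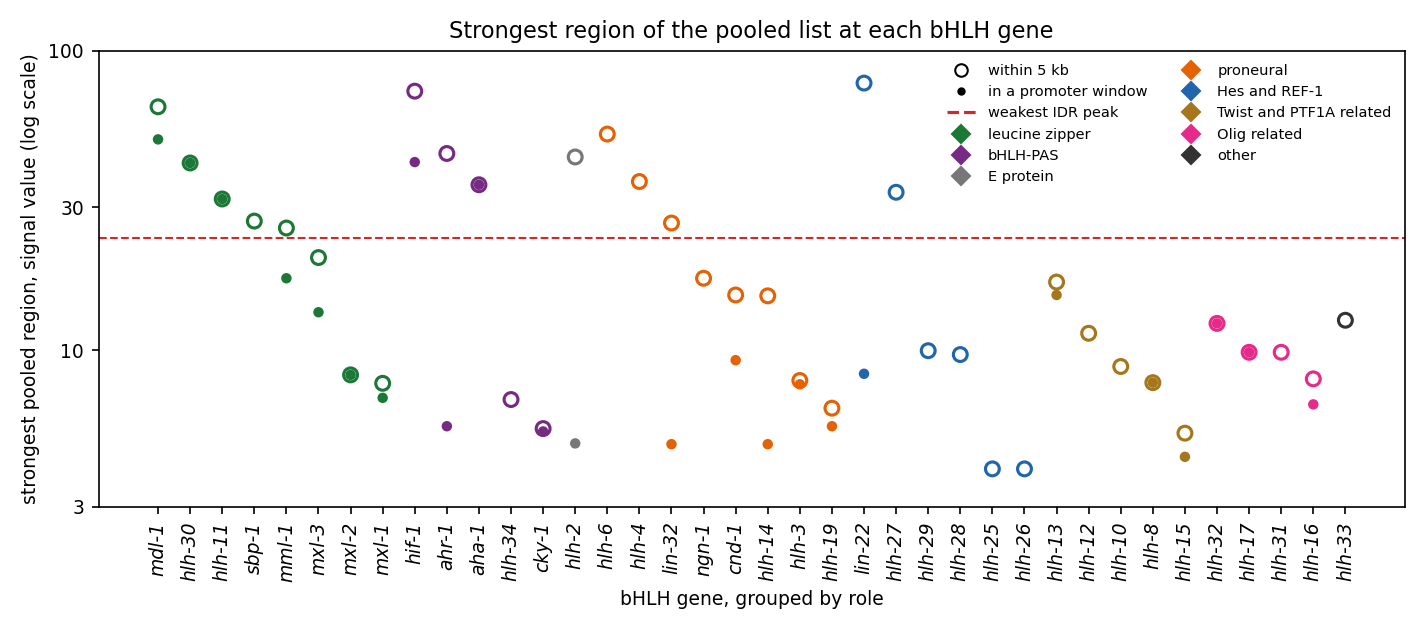
Signal value (log axis) of the strongest region of the pooled list at each of the 38 bHLH genes, ordered by role. Open circles are regions within 5 kb, dots are regions in a promoter window, and the dashed line is the weakest IDR peak (23.8). All 14 genes with an IDR summit lie above the line by construction, since their strongest pooled region is an IDR peak. Below the line, mxl-3 (20.4) is the highest.

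Some members are near-identical in sequence, and their reads may have been shared or lost in the authors' alignment. Of the 31-base words of hlh-28, 91.1% also occur in hlh-29, and 71.4% of those of hlh-25 occur in hlh-27. For these 4 genes the lack of a peak in the gene is uncertain. The shared fraction of hlh-17 with hlh-31 was 6.28%.

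Over all 23 summits within 5 kb of members, the median signal was 36.6 (24.2 to 78.0), beside 34.4 for the IDR set, and 13 of the 23 ranked among its strongest 1255 peaks. The E-box CANNTG lay within 100 bp of 13 of 23 summits (56.5%, 36.8 to 74.4%), beside 68.9% of all IDR summits. CACGTG lay at 4 of 23 (17.4%, 6.98 to 37.1%), beside 5.73%, and all 4 are the mdl-1 summits. The nuclear receptor half-site AGGTCA lay at 1 of 23 (4.35%), beside 6.33%, at the stronger hlh-27 summit. Both strands were searched, and every CACGTG is also a CANNTG.

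The last pair of motifs was taken from earlier results of these data. GAGAGA lay at 15 of 23 summits (65.2%, 44.9 to 81.2%), beside 51.6% of all IDR summits, and ACGCAG at 6 of 23 (26.1%, 12.5 to 46.5%), beside 27.4%. Both background shares lie within the members' intervals. By gene, GAGAGA was at 12 of the 16 summits of leucine zipper and PAS genes and at 3 of the 7 others, and its mdl-1 matches were at 2 of 4 summits. GC content of the windows was 43.3% ± 8.04 (SD, n = 23 windows), beside 44.6% ± 6.13 over all 2511.

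Replicate 1 overlapped 6 of the 23 IDR peaks at members (26.1%, 12.5 to 46.5%), near the 30.7% of all IDR peaks given above. These 6 are the peaks at lin-22, lin-32, ahr-1, the upstream peak of hif-1, and the mdl-1 peaks at 4568 and 79 bp upstream. Replicate 2 overlapped all 23, as it did 2510 of all 2511 IDR peaks, so this count does not set the members apart. Replicate 1's own list held 26 regions within 5 kb of members, and 19 of them overlapped no IDR peak. The same share over all 3577 regions of that list is not given here, so this count is not a trait of the members.

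By replicate 1's list, 2 of 38 members had a region in a promoter window, mdl-1 and mxl-1 (5.26%, 1.46 to 17.3%), beside 7.04% of all genes. In the gene body there were 4 (10.5%, 4.17 to 24.1%), namely mdl-1, hlh-30, ahr-1 and cky-1, beside 8.57%. Within 5 kb there were 17 (44.7%, 30.1 to 60.3%), beside 34.4%. All 4 genes with a body region were among the 13 leucine zipper and PAS genes, roles joined after their IDR values had been seen. Their median length is 4503 bp, against 1504 bp for the other 25, and the body count does not allow for length. Within 5 kb the split was 9 of 13 (69.2%, 42.4 to 87.3%) against 8 of the other 25 (32%, 17.2 to 51.6%). These intervals overlap, and the density of replicate 1 regions was 8.37 per 100 kb against 3.42, and 3.58 over all genes.

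The mxl-1 promoter region of replicate 1, 485 bp upstream, had a signal of 2.41 (rank 2449) and a pooled signal of 6.94, far under the IDR threshold. Stronger in replicate 1 were a region in the body of the neuronal PAS gene cky-1 (4.95, rank 369) and one 3093 bp past the start of hlh-16 and outside that gene (6.38, rank 178). Their pooled signals were 5.48 and 5.92, and replicate 2 overlapped neither. These regions are thus called in 1 replicate only.

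Of the bHLH genes that the naming rule leaves out, the MyoD gene hlh-1 had a promoter peak of signal 75.8 (rank 135), 96 bp upstream, and 2 more at 30.7 and 30.5. The founding REF-1 gene ref-1 had 1 peak 3818 bp upstream (38.9), which replicate 1 also lists, and hnd-1 had none. The hlh-1 and ref-1 peaks have the bHLH gene itself as the nearest start, which none of the peaks near the proneural, Hes and REF-1 members has.

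Genes that work with members were taken from 4 short lists. Beside their counts stand the 7.34% of all genes with a promoter summit and the 24.1% with one within 5 kb, and each list is too short to be told apart from these by its promoter count. Of 5 hypoxia genes around hif-1, 0 had a promoter summit (upper limit 43.4%) and 2 had one within 5 kb (40.0%, 11.8 to 76.9%). One was egl-9, the oxygen-sensing hydroxylase that marks HIF-1 for degradation, with a peak of 53.6 at 1727 bp upstream that replicate 1 also lists. The other was cysl-1, where the start of ZC506.1 was nearer. Of 6 sterol and fat genes found by name, 1 had a promoter summit, nhr-49 with a signal of 64.7, and 3 had one within 5 kb (50%, 18.8 to 81.2%). At fat-5 and mdt-15 a neighbour's start was nearer. Of 9 TOR, lysosome and autophagy genes around hlh-30, 6 had a summit within 5 kb (66.7%, 35.4 to 87.9%). The 24.1% of all genes lies below that interval, in this list only. In a promoter window, 1 of the 9 had a summit (11.1%, 1.99 to 43.5%). That gene was lgg-1, the worm Atg8, with promoter peaks of 64.9 and 24.1. At ragc-1 and let-363, for all summits, and at flcn-1 and bec-1, for some, the nearest start was a neighbour's. Of 9 Notch pathway genes, upstream of the REF-1 family, sup-17 had a promoter peak of 31.2 and the other 8 had no summit within 5 kb.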

How the data were processed

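The authors deposited their peak lists on ce11 and on ce10, and only those on ce11 were used. Per the notes deposited beside them, each replicate and the pooled alignments were called against a control, and an optimal IDR set was kept. Per the files, which have no header, column 7 is the authors' signal value, column 9 the deposited −log10 q-value, which was not used to rank, and column 10 the deposited summit offset. Neither the peak caller nor the aligner is given in the sources used here, and depth and the treatment of shared reads are unknown.

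Summits were placed on Ensembl release 115 genes of WBcel235 with Python 3.11.15, pandas 2.3.3 and numpy 2.4.6. The 12 mitochondrial protein-coding genes were left out. A summit counted for each protein-coding gene whose window held it. Overlap was at least 1 bp. Motifs were searched in 201 bp centred on the summit, on both strands. Shares have 95% Wilson intervals, and no test was made. The assignment of summits was tested on simulated peaks.

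The members, role groups, related lists, motifs and alternatives were chosen with earlier results of these data known. Named were all members with an IDR summit within 5 kb, members without by role, genes with the nearest start, and listed related genes with a promoter summit. Others, such as egl-9, ref-1, the genes with CACGTG at every summit and members with strong pooled regions, were named after their values were seen.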

Additional observations from a re-analysis of the deposited data

How the results depend on the processing

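Of 46 alternatives over 11 results, 27 stayed within 1.5 times the reported count. The list of replicate 1 or 2 alone, limited to its strongest regions, as many as the IDR set holds, gave 2 to 5 members with a promoter region, 2 to 4 with one in the body, 14 to 15 within 5 kb, and 20 to 26 regions within 5 kb. Replicate 2 alone kept all 5 promoter genes and all 14 within 5 kb, whereas replicate 1 alone shared 1 promoter gene, mdl-1, and 8 of its 15 within 5 kb. Replicate 2's full list overlapped 2510 of all 2511 IDR peaks, so its agreement with the IDR set is no independent check. With IDR peaks overlapped by replicate 1 only, 1 member had a promoter summit, 1 a body summit and 5 a summit within 5 kb (6 summits). CANNTG then lay at 3 summits, CACGTG at 2, AGGTCA at 0, GAGAGA at 5 and ACGCAG at 2. The 1255 strongest IDR peaks left 9 members and 13 summits within 5 kb, the nearest start only 7 and 12, and a flank of 2 kb 7 and 12. A flank of 10 kb gave 37 summits. With 50 bp around the summit AGGTCA lay at 0. The cause of these moves was not tested, other than fewer peaks or a narrower window by construction. No paired analysis was possible because the replicates form 1 group. Depth limits are unknown without counts.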
